A study of Homo sapiens with 3 samples.

Results

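Mediator is the large protein complex that carries signals from DNA-bound activators to RNA polymerase II. Its subunit genes were followed here in AsPC-1, a human pancreatic cancer cell line, after knockdown of the long non-coding RNA LINC00941. The members were taken by name: every protein-coding gene of the deposited table whose symbol is MED and a number, with or without a final L, together with CDK8, CDK19 and CCNC. The rule found 32 genes among the 16463 genes listed, of which 12548 were protein-coding. MED12L, the 33rd subunit name considered, was not among the genes of this table and was not analysed here. The groups were cells given siRNA si#1 against LINC00941, cells given si#2 against the same RNA, and cells given a negative control siRNA (siNC). All of them were unmodified AsPC-1 cells that received 200 nM siRNA, with RNA taken 24 h later (Day 1). Total RNA was sequenced as 1 library per group, so no difference below has a replicate check, and no SD or p-value is given. Both siRNAs were set against the same siNC library, so their fold changes are not independent.

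Mediator is built from a head, a middle and a tail module held together by MED14, and the head and middle contact the polymerase and the general transcription factors. Subunits of the tail, with MED1 of the middle, receive most known activators. A separate kinase module, made of cyclin C (CCNC), CDK8 or CDK19, MED12 or MED12L, and MED13 or MED13L, binds the core reversibly, blocks its contact with the polymerase and phosphorylates transcription factors. CDK8 has been studied as an oncogene in cancers of the gut, and MED12 and MED13L are altered in tumors or developmental disorders.

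The libraries held 92510692 reads with si#1, 90867405 with si#2 and 88690997 with siNC. LINC00941 had 214 reads with si#1 and 273 with si#2, against 1551 with siNC, or -2.89 and -2.56 as log2 fold changes. All 8 ductal epithelial markers looked for were listed, with summed levels of 7311 TPM (transcript abundance scaled by length and library size) with si#1, 11149 with si#2 and 9416 with siNC. Of other cell types, 2 of 5 fibroblast, 1 of 3 endothelial, 2 of 4 leukocyte, 0 of 3 acinar and 0 of 2 islet markers were listed. The fibroblast markers DCN and LUM summed to 129.7 TPM with si#1, 131.9 with si#2 and 167.6 with siNC. Single values of this pair ranged from 0.012 to 167.6 TPM, so 1 gene carried nearly all of the siNC sum. COL1A1, COL1A2 and PDGFRB were not among the listed genes. The leukocyte markers CD14 and CD68 summed to 25.3, 21.4 and 26.5 TPM in the same order of libraries. Their single values ranged from 0.42 to 25.9 TPM, so here too 1 gene carried nearly all of the siNC sum. VWF of the endothelium reached at most 0.048 TPM. The part of any other cell type in the results below was not tested.

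All 6 listed genes of the kinase module lay below the control with both siRNAs, so the promoters of its members are shown first. For 5 of its 6 listed genes RefSeq start sites were matched (build GRCh38.p14). The 250 bases before the most upstream start are printed 5′ to 3′ in the direction of the gene. CDK19 had 3 listed starts and CCNC had 2, and their other starts are not printed. The windows are chr13:26253879-26254128 on the plus strand for CDK8, chrX:71118346-71118595 on the plus strand for MED12, chr12:116277694-116277943 on the minus strand for MED13L, chr6:110815856-110816105 on the minus strand for CDK19 and chr6:99568815-99569064 on the minus strand for CCNC. Capitals mark matches, on either strand, to 5 short motifs named after the factors or elements they are known for: the ETS core CCGGAA, the GC box GGGCGG, the CCAAT box CCAAT, the TATA box TATAAA and the CRE core TGACG.
CDK8: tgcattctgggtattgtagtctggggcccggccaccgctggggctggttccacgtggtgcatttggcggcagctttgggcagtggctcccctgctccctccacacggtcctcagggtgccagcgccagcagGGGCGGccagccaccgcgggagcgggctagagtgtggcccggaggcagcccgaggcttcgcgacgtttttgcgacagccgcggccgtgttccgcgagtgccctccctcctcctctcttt
MED12: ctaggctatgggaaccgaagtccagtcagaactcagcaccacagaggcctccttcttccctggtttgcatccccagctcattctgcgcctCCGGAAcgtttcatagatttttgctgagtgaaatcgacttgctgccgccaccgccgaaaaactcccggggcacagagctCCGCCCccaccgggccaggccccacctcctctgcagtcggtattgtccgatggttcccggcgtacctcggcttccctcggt
MED13L: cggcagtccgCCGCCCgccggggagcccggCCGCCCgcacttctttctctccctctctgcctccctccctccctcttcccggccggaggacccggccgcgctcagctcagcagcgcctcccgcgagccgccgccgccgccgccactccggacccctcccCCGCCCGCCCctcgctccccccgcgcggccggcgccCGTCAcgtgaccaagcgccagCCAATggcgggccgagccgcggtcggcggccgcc
CDK19: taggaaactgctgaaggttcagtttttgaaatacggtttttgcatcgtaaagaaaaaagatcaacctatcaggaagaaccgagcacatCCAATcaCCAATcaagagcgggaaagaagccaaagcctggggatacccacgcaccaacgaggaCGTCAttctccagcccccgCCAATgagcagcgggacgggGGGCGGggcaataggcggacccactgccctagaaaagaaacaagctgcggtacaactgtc
CCNC: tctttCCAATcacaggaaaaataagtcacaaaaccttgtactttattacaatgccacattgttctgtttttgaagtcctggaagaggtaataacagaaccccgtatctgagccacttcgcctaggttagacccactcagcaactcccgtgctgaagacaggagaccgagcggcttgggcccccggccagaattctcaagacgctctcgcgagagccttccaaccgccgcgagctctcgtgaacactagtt

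No motif was shared by all 5 windows. A GC box stood in those of CDK8, MED12, MED13L and CDK19. CCAAT boxes stood in those of MED13L, CDK19 and CCNC, with 3 in CDK19. The window of MED13L was the richest in G and C, at 81.2% with 40 CpG dinucleotides and 4 GC boxes, 2 of them overlapping. That of CCNC had 50.4% and 13 CpG dinucleotides. Over 300-base windows, from 250 bases before to 50 after any listed start, 24 of the 32 members could be matched. An ETS core was found in 41.7% of these members, against 34.2% of 11162 listed genes and 20.1% of all 27305 genes of the promoter table. For the GC box the shares were 66.7%, 75.04% and 48.3%, and for the CCAAT box 37.5%, 42.6% and 39.7%. For the TATA box they were 8.33%, 8.74% and 13.99%, and for the CRE core 41.7%, 39.5% and 28.4%. These matches describe the letters of the windows and no measured binding.

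All 32 members were well covered, with a mean over the libraries between 390.3 reads for MED26 and 8953 for MED13 and no value under 339 reads. Levels between genes were compared as TPM, which is scaled by transcript length. CCNC, the cyclin that activates CDK8 and CDK19, was the most abundant member in every library, with 49.2 TPM with si#1, 41.1 with si#2 and 67.4 with siNC. MED8, which tethers the movable jaw of the head, came second with 38.7, 32.8 and 36.2 TPM in those libraries. CDK8 followed in each library. At the low end stood MED26, a middle subunit that recruits elongation factors, with 1.77, 1.99 and 1.80 TPM. MED26 was the lowest member with si#1 and siNC, and CDK19 was the lowest with si#2, at 1.59 TPM. With 1 library per group, neighbors in this order could not be separated by a spread. The members summed to 389.6 TPM with si#1, 355.4 with si#2 and 450.4 with siNC. The median gene of the table had 5.65, 5.36 and 6.39 TPM, so that raw TPM ran lower in both knockdown libraries over all genes, and fold changes below are given on a normalized scale.

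**Figure D1:**
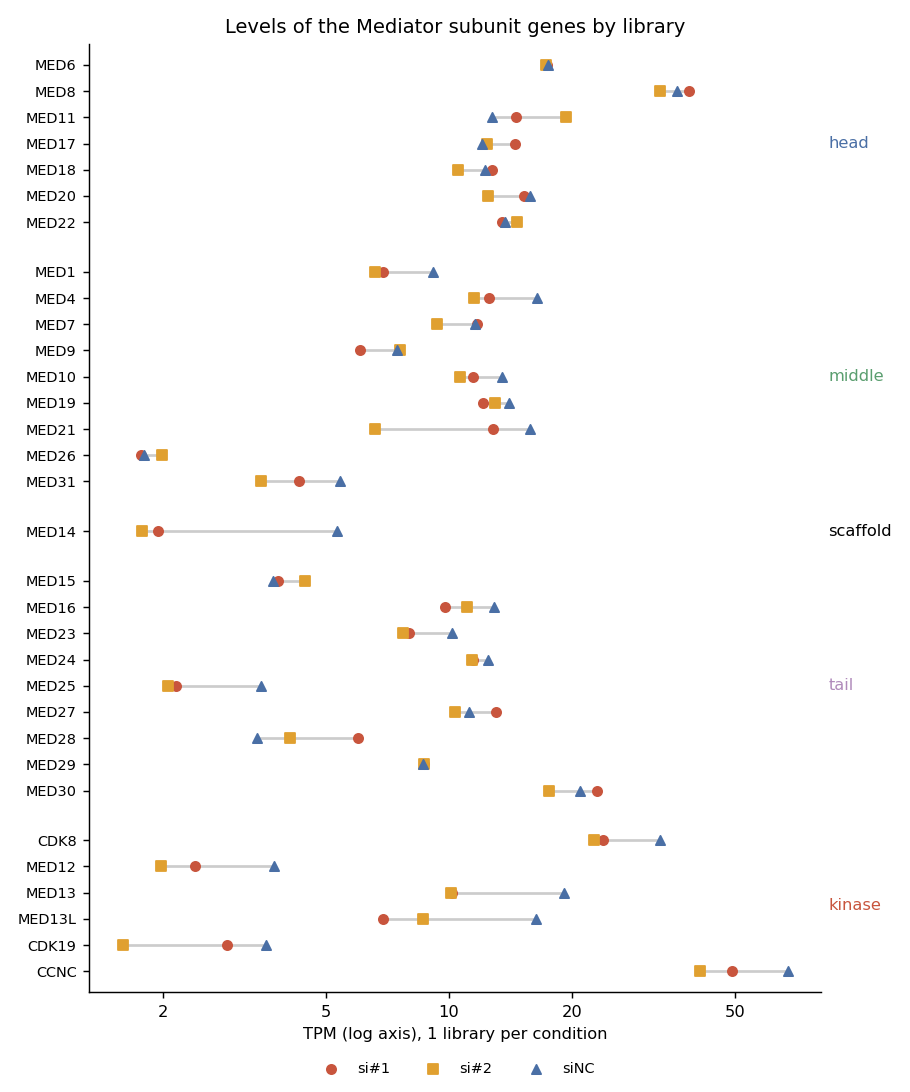
TPM of the 32 Mediator subunit genes (log axis) in the si#1, si#2 and siNC libraries, grouped by module, with 1 point per library. The siNC point lies to the right of both others for 19 of the 32 members, among them MED14 and all 6 kinase module genes. The siNC value was also the highest in 8244 of all 16463 genes, and in 6330 of the 12106 averaging 100 reads or more. CCNC has the highest value in each library (49.2, 41.1 and 67.4 TPM).

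Fold changes are differences in log2(read count + 1) after quantile normalization over all listed genes, and a gene was said to rise or fall at 2-fold, a log2 change of 1. Most members stayed well under this. With both siRNAs, 23 of 32 differed from siNC by less than 0.5 on the log2 scale, and the median over the members was -0.09 with si#1 and -0.06 with si#2, against 0.03 and 0.02 over all genes. No member rose with si#1 or si#2, where 5.22% and 5.49% of all genes rose, and none rose with both, where 2.53% of all genes did. Falls of at least 2-fold were seen in 2 of 32 members with si#1 (MED14 and MED13L), where 6.8% of all genes fell, and in 2 of 32 with si#2 (MED14 and MED21), where 7.17% fell. MED14 alone fell with both, a share of 1 in 32 against 3.51% of all genes. Of the 12106 genes averaging 100 reads or more, which include every member, 3.74% fell with si#1, 4.26% with si#2 and 2.21% with both. Rises were rarer in those 12106 genes than over the whole table, at 220 genes with si#1, 267 with si#2 and 124 with both. The counts of members were thus near the background of the table.

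MED14, the scaffold to which head, middle and tail are anchored, had the largest fall of the complex with both siRNAs. It had 1063 reads with si#1 and 1000 with si#2, against 2576 with siNC. Its level was 1.95 and 1.78 TPM in the knockdown libraries and 5.33 TPM in siNC, so both stood well under the control and close to each other. On the log2 scale it changed by -1.32 with si#1 (95% counting interval -1.42 to -1.21) and -1.37 with si#2 (-1.48 to -1.27). Such intervals treat a pair of read counts as a binomial share (exact Clopper-Pearson method) and cover counting error only. The gene lies on chromosome X of GRCh38, from 40648305 to 40735858 on the minus strand, with 31 exons in a transcript of 7996 bases in GENCODE. On quantile-normalized log2(TPM + 1) its changes were -0.94 and -0.99, just under 2-fold. MED14OS, on the opposite strand, shares 459 bp with MED14 and had 24, 14 and 8 reads with si#1, si#2 and siNC. No source used here says whether reads were assigned by strand. The reads of MED14OS are few beside those of MED14. In bulk RNA, fewer cells of a type and less RNA per cell cannot be told apart, here and below.

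The kinase module was lower in both knockdown libraries in all 6 of its listed genes. All 6 log2 fold changes lay below 0 with both siRNAs, where 34.8% of all genes were below 0 with both. Both counting intervals also lay below 0 in all 6, against 22.7% of all genes and 27.96% of those averaging 100 reads or more. The module median was -0.41 with si#1 and -0.66 with si#2, and the module summed to 95.3 TPM with si#1 and 86.1 TPM with si#2, against 143.0 TPM with siNC. Only 1 of the 6 passed 2-fold, with 1 siRNA. All 6 stayed below 0 with both siRNAs under each of the 11 alternative scales and filters, but some changes shrank with the length and GC trend removed. CCNC was then at -0.07 and -0.12, CDK19 at -0.08 and -0.78, and MED13 at -0.55 and -0.36. On log2(TPM + 1) CDK19 was at -0.06 and -0.63, and MED12 at -0.30 and -0.45.

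MED13L, one of the paralogous subunits that bridge the kinase module to core Mediator, fell with si#1. It had 4412 reads with si#1 and 5701 with si#2, against 9236 with siNC, and levels of 6.89, 8.65 and 16.3 TPM. Both knockdown libraries stood under the control, si#1 the lower. On the log2 scale MED13L changed by -1.09 with si#1 (-1.14 to -1.03) and stood at -0.66 with si#2 (-0.70 to -0.61), and the si#1 value was -0.99 on log2(TPM + 1). Its paralog MED13, which does the same bridging, had 7287 reads with si#1 and 7458 with si#2, against 12113 with siNC. The log2 fold changes of MED13 were -0.76 (-0.80 to -0.72) and -0.67 (-0.71 to -0.63), under 2-fold with both. MED13 made up 59.7% of the TPM of the pair with si#1 and 54.0% with si#2, against 54.0% with siNC, a higher share than the control in the si#1 library and the same share in the si#2 library. MED13L lies on chromosome 12 from 115957905 to 116277693 and MED13 on chromosome 17 from 61942605 to 62065278, both on the minus strand.

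CDK19 differed between the siRNAs and CDK8 did not beyond its counting error. CDK8 had 4976 reads with si#1 and 4856 with si#2, against 6076 with siNC, with log2 fold changes of -0.31 and -0.30. CDK19, its paralog, had 1245 reads with si#1 and 718 with si#2, against 1381 with siNC. The si#2 library was therefore the one that stood apart for CDK19, with a log2 fold change of -0.97 (-1.10 to -0.83), against -0.20 (-0.31 to -0.09) with si#1. CDK8 supplied 89.2% of the TPM of the pair with si#1 and 93.4% with si#2, against 90.2% with siNC, so it was the main kinase of the module at the RNA level in all 3 libraries. CCNC had 7359 reads with si#1 and 6273 with si#2, against 8889 with siNC, and log2 fold changes of -0.30 and -0.47. TSTD3 overlaps CCNC on the opposite strand but had no more than 170 reads in any library. MED12, which activates the cyclin C-dependent kinase, had 1131 reads with si#1 and 966 with si#2, against 1562 with siNC. Its log2 fold changes were -0.51 (-0.62 to -0.40) and -0.71 (-0.82 to -0.59).

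**Figure D2:**
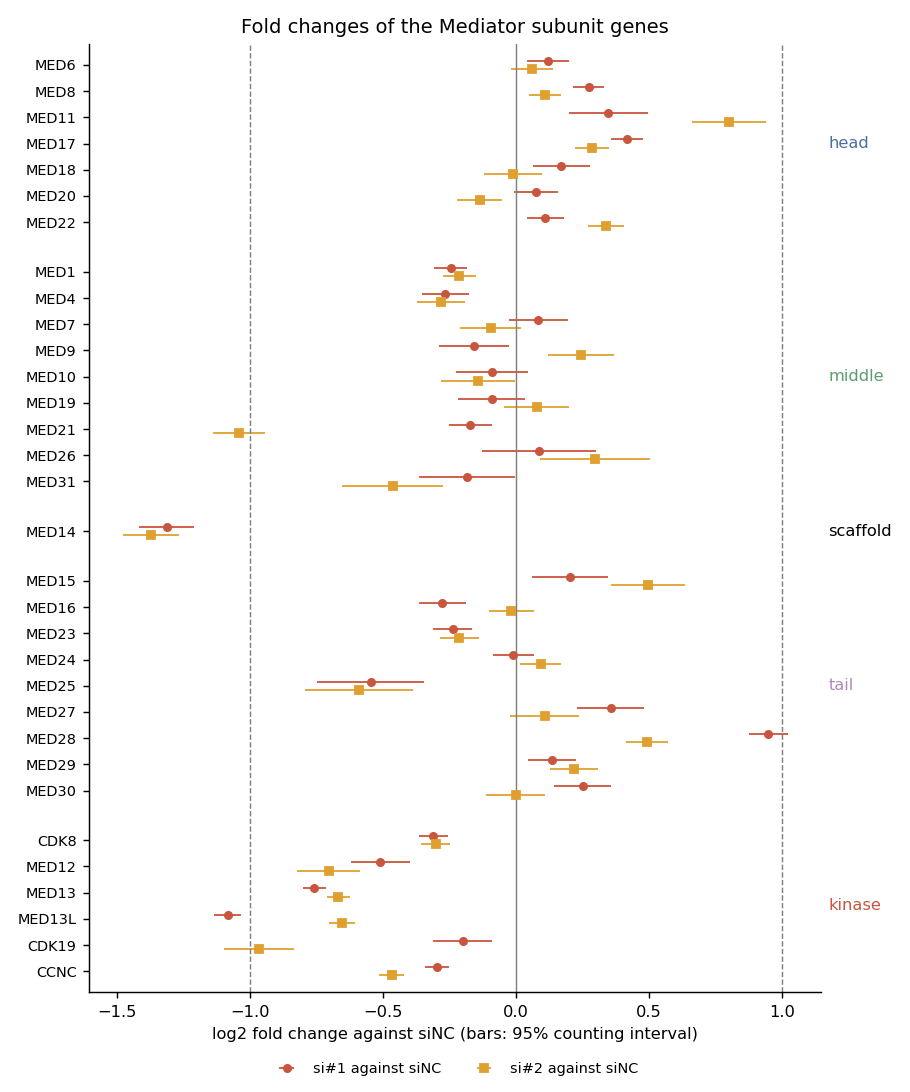
log2 fold change of each member with si#1 and si#2 against siNC, by module, with bars for the 95% counting interval and dashed lines at 2-fold. MED14 lies beyond the lower line with both siRNAs (-1.32 and -1.37), MED13L with si#1 and MED21 with si#2, and all 6 kinase module genes lie left of 0.

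The head module, which holds the promoter-bound polymerase, lay slightly on the other side. Its genes had median log2 fold changes of 0.17 (si#1) and 0.11 (si#2), and 5 of its 7 genes were above 0 with both, where 40.7% of all genes were. None passed 2-fold. With counts scaled by the library total, the medians were 0.17 and 0.03. They were 0.25 and 0.20 with a length and GC trend removed. The summed level was 126.7 TPM with si#1 and 119.4 TPM with si#2, against 120.2 TPM with siNC. MED11, a small subunit that pairs with MED22, had 855 reads with si#1 and 1153 with si#2, against 658 with siNC. Both knockdown libraries were above the control, with log2 fold changes of 0.35 (0.20 to 0.50) and 0.80 (0.66 to 0.94). MED17, the central subunit of the head, had 5036 reads with si#1 and 4444 with si#2, against 3718 with siNC. It also lay above the control with both, at 0.42 (0.36 to 0.48) and 0.29 (0.22 to 0.35). MED22 was at 0.11 and 0.34 and MED8 at 0.27 and 0.11. MED6, a conserved contact of the head with the middle, was at 0.12 and 0.06. The jaw subunits MED18 (0.17 and -0.01) and MED20 (0.07 and -0.14) were above 0 with si#1 and below 0 with si#2.

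In the middle module, 5 of 9 genes were below 0 with both siRNAs, where 34.8% of all genes were. The module median was -0.16 with si#1 and -0.14 with si#2. With the length and GC trend removed, the medians were -0.07 and -0.06. MED21, which forms a flexible hinge with MED7, fell with si#2. It had 2347 reads with si#1 and 1244 with si#2, against 2562 with siNC, and levels of 12.8, 6.61 and 15.8 TPM. The si#1 library was thus close to the control and the si#2 library far under both. The log2 fold change was -1.04 (-1.14 to -0.94) with si#2, and -0.17 (-0.25 to -0.09) with si#1. MED21 lies on chromosome 12, from 27022546 to 27066343 on the plus strand, 3.69 Mb from the start of LINC00941 as GENCODE places it. Its si#2 change was under 2-fold in 2 alternatives, at -0.92 on log2(TPM + 1) and -0.68 with the length and GC trend removed. Its hinge partner MED7 was at 0.08 and -0.10.

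MED1, the docking subunit of nuclear receptors, had 3832 reads with si#1 and 3775 with si#2, against 4491 with siNC. Its log2 fold changes were -0.25 and -0.21, a similar shift in both libraries that stayed far from 2-fold. MED26 had 383 reads with si#1 and 443 with si#2, against 345 with siNC, and changes of 0.08 (-0.13 to 0.30) and 0.30 (0.09 to 0.51). The si#1 interval of MED26 included 0. The other structural subunits of the middle stayed within 0.5 of the control: MED4 was at -0.27 and -0.28, MED9 at -0.16 and 0.24, MED10 at -0.09 and -0.14, MED19 at -0.09 and 0.08, and MED31 at -0.19 and -0.46.

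No member of the tail passed 2-fold. MED28 was the highest member of the complex with si#1, and MED11 of the head with si#2. MED28 had 4450 reads with si#1 and 3128 with si#2, against 2228 with siNC, and levels of 6.0, 4.10 and 3.39 TPM. Both knockdown libraries were above the control, si#1 the higher. Its log2 fold changes were 0.95 (0.88 to 1.02) with si#1, just short of the threshold, and 0.49 (0.41 to 0.57) with si#2. In 3 of 11 alternatives the si#1 value reached 2-fold, up to 1.06. MED25, a subunit bound by the viral activator VP16 and by ETS factors of the PEA3 group, lay lowest in the tail. It had 345 reads with si#1 and 339 with si#2, against 492 with siNC, with log2 fold changes of -0.55 (-0.75 to -0.34) and -0.59 (-0.79 to -0.39). With the length and GC trend removed it was at -0.84 with si#1 and passed 2-fold with si#2, at -1.05.

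MED15, through which SREBP factors act, had 860 reads with si#1 and 1039 with si#2, against 729 with siNC, and changes of 0.20 and 0.50. MED23, which binds ELK1 once MAP kinase has phosphorylated it, had 2817 reads with si#1 and 2768 with si#2, against 3227 with siNC. The changes of MED23 were -0.24 (-0.31 to -0.17) and -0.21 (-0.29 to -0.14), small shifts of the same size with both siRNAs, and the si#2 value was 0.01 with the length and GC trend removed. MED24, a neighbor of MED23 in the tail, had 2720 reads with si#1 and 2806 with si#2, against 2638 with siNC, at -0.01 and 0.09. MED16 was at -0.28 and -0.02. The metazoan subunits of the upper tail, MED27 (0.36 and 0.11), MED29 (0.14 and 0.22) and MED30 (0.25 and 0.00), were within 0.5 of the control. The tail median was 0.14 with si#1 and 0.09 with si#2, and -0.01 and 0.01 with the length and GC trend removed.

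Set directly against each other, si#1 and si#2 did not differ 2-fold in any of the 32 members, where 8.23% of all genes differed. Among the 12106 genes averaging 100 reads or more, normalized by themselves, the share was 1.5%, so a count of 0 was near that background. The widest gaps were those of MED21, at 0.87 (0.77 to 0.97) for si#1 minus si#2, and of CDK19, at 0.77 (0.63 to 0.90). MED28 followed at 0.46, then MED11 at -0.45 and MED13L at -0.43. For MED14 the gap was 0.06 (-0.07 to 0.18), so that its counts in the knockdown libraries differed by less than the counting error. The same held for CDK8, at -0.01 (-0.07 to 0.05), for MED1, at -0.03 (-0.10 to 0.03), and for MED23, at -0.02 (-0.10 to 0.05). Several members overlap genes on the opposite strand, and their reads are uncertain to that extent. MED24 shares 2926 bp with THRA (3424 reads with si#1, 3131 with si#2 and 3060 with siNC) and MED31 shares 1231 bp with TXNDC17 (5566, 6177 and 4758 reads). The overlaps of MED16 with CFD, of MED17 with TAF1D and of MED11 with CXCL16 span 255, 165 and 76 bp. In 13 of 32 members (40.6%) both counting intervals against siNC lay below 0, against 27.96% of the genes averaging 100 reads or more and 22.7% of all genes. Both lay above 0 in 7 members (21.9%), against 35.4% and 27.7% of those genes. Opposite signs with the siRNAs were seen in 7 members (21.9%), near the 19.1% and 20.4% of those genes.

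**Figure D3:**
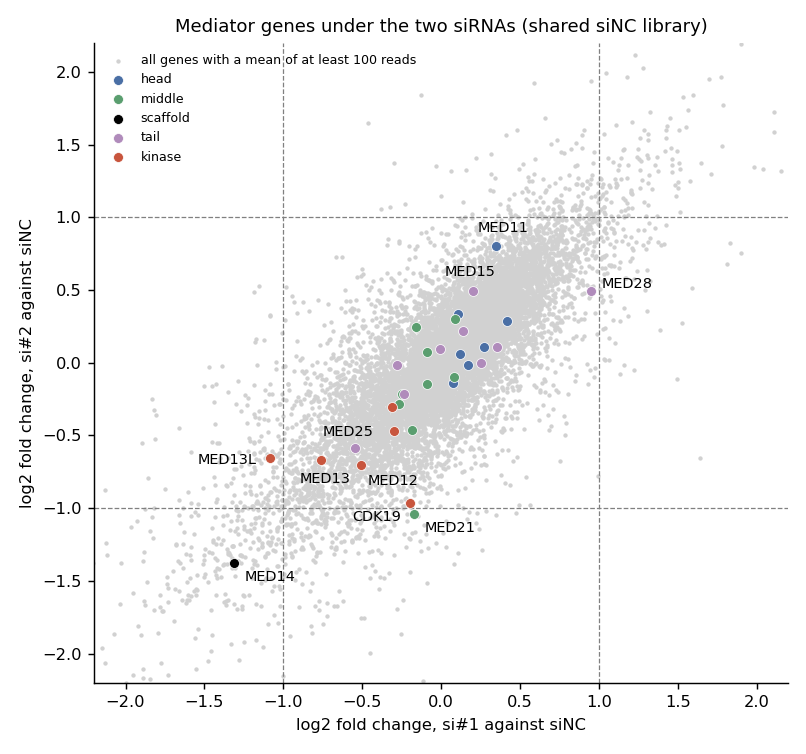
log2 fold change with si#1 (horizontal) and si#2 (vertical) against the shared siNC library for the members, colored by module, over the 12106 genes averaging 100 reads or more (grey, cropped at 2.2). MED14 is the only member beyond both lower dashed lines, and MED21 and CDK19 lie low with si#2 while near 0 with si#1 (-0.17 and -0.20).

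Fold changes were also read against transcript length. The 9 members with a GENCODE transcript of at least 5000 bases had medians of -0.25 (si#1) and -0.66 (si#2) on the log2 scale, against -0.18 and -0.23 for the 3331 listed genes of that length. The 8 members under 2000 bases had medians of 0.21 and 0.04, against 0.11 and 0.14 for 5565 genes. Over the 32 members, which share libraries and are not independent replicates, log2 transcript length and fold change had a Pearson's r of -0.37 with si#1 and -0.37 with si#2 (Spearman's rho -0.35 and -0.23). Without MED14 and MED13L, r was -0.16 and -0.24 over 30 members. For GC content r was 0.10 and 0.41 over all 32 members, and 0.03 and 0.40 without MED14 and MED13L. Over 15270 listed genes r was -0.08 and -0.10 for length, and 0.24 and 0.37 for GC content. MED28 lay above siNC with a transcript of 10858 bases, and MED21 and MED25 lay well below it, the first with si#2 and the other with both siRNAs, with transcripts of 2669 and 2332 bases. With a linear trend on length and GC content removed, MED14 stayed past 2-fold at -1.16 and -1.14, and the kinase module median was -0.40 with si#1 and -0.47 with si#2. This trend covered 6.01% of the variance of the fold changes with si#1 and 13.5% with si#2 over the 15270 genes. The part of transcript length and GC content in these values was not tested.

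**Figure D4:**
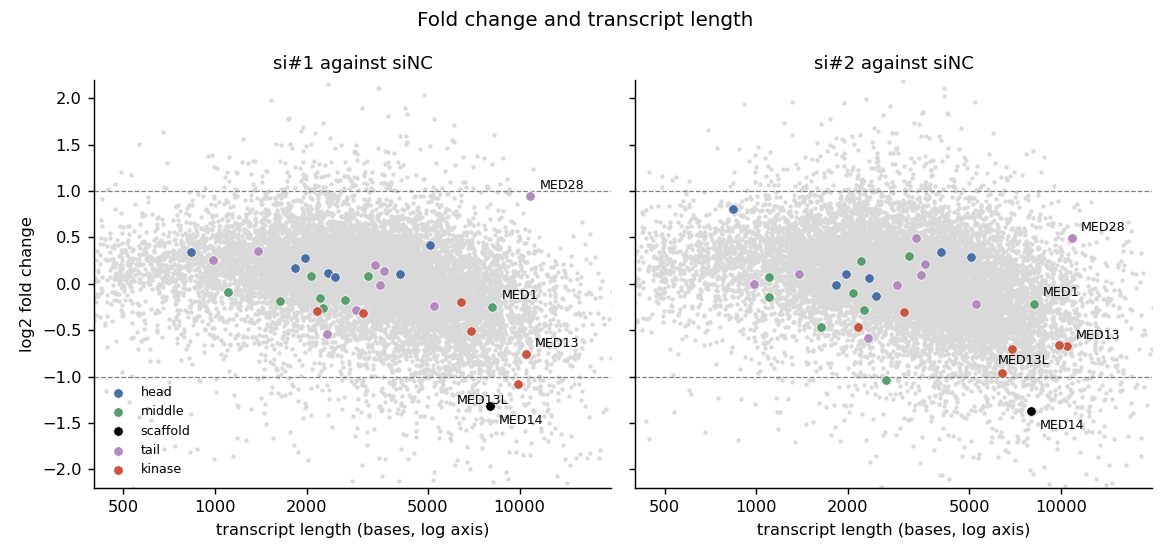
log2 fold change against siNC and GENCODE transcript length (log axis) for si#1 (left) and si#2 (right), with members colored by module over the genes averaging 100 reads or more (grey). The 9 members of at least 5000 bases have medians of -0.25 and -0.66, and MED28, with 10858 bases, lies above 0.

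The complexes that work with Mediator were read from gene lists. RNA polymerase II had a median of 0.25 with si#1 and 0.23 with si#2 over 12 subunits. Of these subunits 9 were above 0 with both, where 40.7% of all genes were. POLR2A, its largest subunit, which carries the repeat domain that Mediator contacts, went the other way. POLR2A had 3094 reads with si#1 and 3088 with si#2, against 8635 with siNC, at -1.499 and -1.45 on the log2 scale, past 2-fold under each of the 11 alternative scales and filters. No other polymerase subunit passed 2-fold. Of 18 general transcription factor genes, none passed 2-fold, and the medians were 0.10 and 0.06. The largest change there with si#1 was that of GTF2F1, a TFIIF subunit, at 0.50 and 0.56, and with si#2 that of GTF2A1, a TFIIA subunit, at -0.47 and -0.81. Of 15 TFIID TAF subunits, TAF4 alone passed 2-fold, with si#1 (-1.06), and was at -0.86 with si#2.

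Of 20 listed genes of pause release and elongation, NELFB, a subunit of the pausing factor NELF, rose with both siRNAs. NELFB had 9924 reads with si#1 and 10066 with si#2, against 4496 with siNC, at 1.11 and 1.21 on the log2 scale. AFF1 and AFF4, scaffolds of super elongation complexes, went the opposite way: AFF1 fell with si#1 (-1.19) and was at -0.99 with si#2, and AFF4 was at -0.76 with si#1 and fell with si#2 (-1.01). Of 10 genes of cohesin, which loops enhancers to promoters together with Mediator, and its loader, 8 were below 0 with both siRNAs. Over all genes the share below 0 with both was 34.8%. Only NIPBL of the list passed 2-fold, with both siRNAs, where 3.51% of all genes fell with both. NIPBL, the loader that binds Mediator, had 4418 reads with si#1 and 3886 with si#2, against 9544 with siNC, at -1.14 and -1.26. With the trend on length and GC content removed, NIPBL was at -0.94 and -0.97 and NELFB at 0.85 and 0.81, under 2-fold. In that setting 6 of the 10 cohesin and loader genes were below 0 with both.

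Of 23 listed activators known to bind Mediator subunits, FOXA1, a pioneer factor of endodermal tissues, fell with both siRNAs. FOXA1 had 116 reads with si#1 and 98 with si#2, against 287 with siNC, at -1.38 and -1.65, and was under 2-fold on log2(TPM + 1). GATA6 (-1.20) and the thyroid hormone receptor gene THRB (-1.19) fell with si#1, and were at -0.76 and -0.62 with si#2. ELK1, the partner of MED23, was at -0.12 and 0.04. SREBF2, whose product acts through MED15, was at -0.78 and -0.88, and SREBF1 at 0.25 and 0.38. The list medians were -0.12 with si#1 and -0.10 with si#2.

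**Figure D5:**
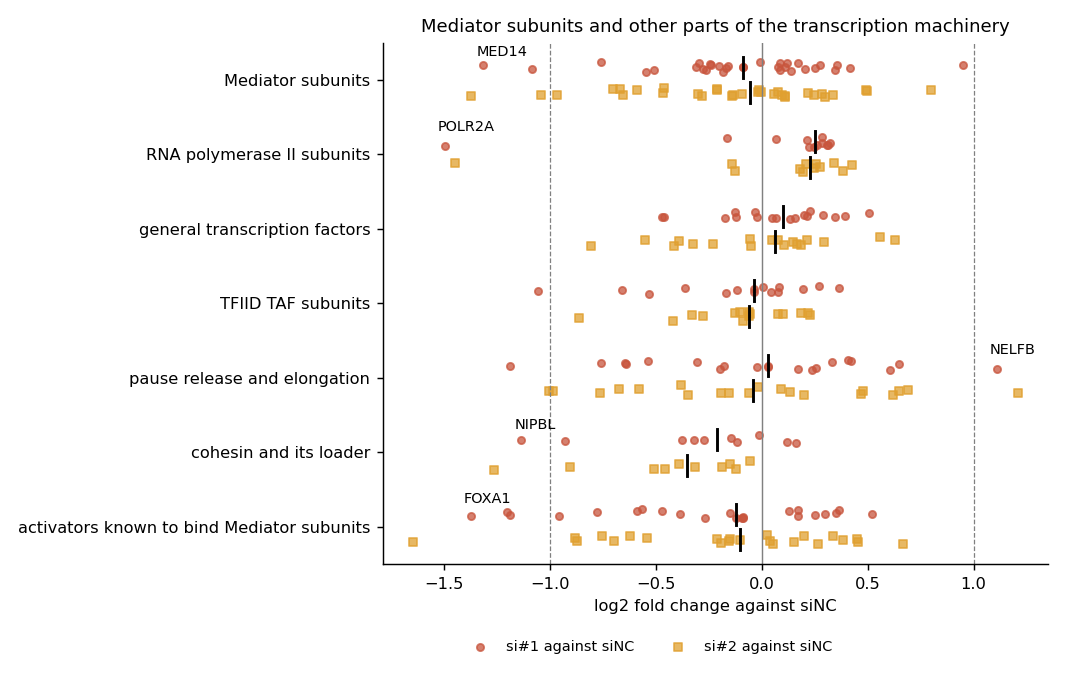
log2 fold change against siNC of the Mediator members and of 6 lists of transcription machinery genes, with si#1 above si#2 in each list, 1 point per gene, black bars at the list median and dashed lines at 2-fold. POLR2A (-1.499 and -1.45) stands apart from the other 11 polymerase subunits as MED14 (-1.32 and -1.37) does from most Mediator subunits.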

How the data were processed

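AsPC-1 libraries were made by the authors with a stranded total RNA kit, 1 per condition, and sequenced in pairs. Alignment to GRCh38 was done by the authors with HISAT2, and known genes were assembled with StringTie. No source used here gives their versions. The deposited read counts and TPM per gene were used. Columns headed FPKM in the deposited table equalled the read counts in all 16463 genes and were left aside. The authors' normalized log2 columns were recomputed from the counts, with differences of at most 5e-09, and 3 columns of means equal them. The authors' fold changes and volumes, scores of their own comparisons, were not used, nor were 15 per-sample columns of a second sheet.

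The log2 of each read count plus 1 was quantile-normalized over all listed genes, and genes were called at 2-fold. Intervals are exact 95% Clopper-Pearson intervals. Transcript length and GC content came from GENCODE release 44 (15270 genes matched) and promoters from RefSeq. Members, modules and lists were chosen with earlier results of these data known. Every member is named; values per library are given for members past 2-fold, the kinase module, MED1, MED14, MED15, MED17, MED23, MED24, MED26, and the largest rises and falls by the smaller of both changes. Of other lists, genes past 2-fold with both siRNAs and the largest change were named; AFF1, AFF4, GATA6, THRB, ELK1, SREBF1, SREBF2, MED14OS and the other overlapping genes were chosen after their values were seen. Alternatives were other scales, normalizations, pseudocounts (10 reads, 0.1 or 1 TPM), filters, thresholds, a length trend, a length and GC trend added after seeing the data, and pooled edgeR 4.0.16 (quasi-likelihood) and DESeq2 1.42.0 (Wald) fits in R 4.3.3. Other software was Python 3.11.15, numpy 2.4.6, pandas 2.3.3, scipy 1.17.1 and matplotlib 3.10.9.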

Additional observations from a re-analysis of the deposited data

How the results depend on the processing

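With 1 library per condition, no spread between replicates could be measured, and intervals cover counting error only. The count of members past 2-fold was 0 with si#1, 0 with si#2 and 0 with both siRNAs on quantile-normalized log2(TPM + 1), where a pseudocount of 1 TPM is large beside the level of MED14 and 2.1%, 2.6% and 1.16% of all genes passed. At a 1.5-fold threshold it was 4 with si#1 and 8 with si#2, 3 with both (MED14, MED13 and MED13L) and 2 between si#1 and si#2 (MED21 and CDK19). At that threshold 26.7% of all genes passed with si#1, 29.9% with si#2, 16.2% with both and 17.7% between si#1 and si#2. Fits that pool both siRNA libraries against the lone siNC library treat si#1 and si#2 as replicates of 1 condition. They take the differences between these siRNAs as the spread and assume that siNC varies as the siRNA libraries do. Only effect sizes are given from these fits, because siNC had 1 library. The pooled log2 fold changes with edgeR were -1.367 for MED14, -0.76 for MED13 and -0.91 for MED13L. With DESeq2 they were -1.365, -0.76 and -0.91. The largest pooled rise was that of MED28, at 0.72 in both fits. The medians of the members stayed between -0.15 and -0.03 under the scales, normalizations, filters and trends run. No value past 2-fold changed sign. Of the smaller values, 4 with si#1 and 10 with si#2, none above 0.30 in size, changed sign in at least 1 alternative. No paired analysis was possible because each condition has 1 library.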
